A study of Homo sapiens with 18 samples.

Results

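Disulfiram (DSF) was compared with control in EpCAM+ cells of the hepatocellular carcinoma (HCC) line Huh1, with 3 arrays in each group, 6 of the 18 arrays of the series. The remaining arrays hold Huh1 cells treated with 5-fluorouracil (5-FU, 1 µM) and the same 3 groups in a second HCC line, Huh7, again 3 arrays each. DSF was given at 0.1 µM for 48 hours. The study's text speaks of EpCAM+ cells treated with DSF and does not spell out whether sorting came before or after treatment. The level of EPCAM itself may therefore be partly set by the gate. The methods list copper chloride beside DSF and do not state whether control cells received it, so DSF and copper cannot be told apart. Both lines are established human tumor lines grown in culture, without stroma or immune cells.

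DSF inhibits aldehyde dehydrogenases and, through its metabolite, binds copper and other metal ions. Cells meet excess zinc or copper with metallothioneins, small cysteine-rich proteins that bind metal ions, whose genes are switched on by the zinc-sensing factor MTF1 through metal response elements in their promoters. Damaged or misfolded protein calls up heat shock chaperones through HSF1, and stalled translation or endoplasmic reticulum stress calls up the ATF4 program. Hepatocyte-like tumor cells also secrete plasma proteins and run sterol, urea and drug metabolism under a set of liver transcription factors.

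A level is given below as the log2 signal of a gene's brightest probe relative to the 75th percentile of its array, and a change is the DSF mean minus the control mean on that log2 scale. A gene is called when the limma test across all probes, with Benjamini-Hochberg adjustment, gave an adjusted p under 0.05. With 3 arrays against 3 an exact permutation test of any gene cannot give a p below 0.1, so the calls rest on the spread limma estimates over all 18 arrays. In bulk RNA, fewer cells of a type and less RNA per cell cannot be told apart.

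Control replicate 1 stood apart from the others. Over 23905 probes well above background on all 6 arrays, it differed from the other control arrays by 0.37 and 0.324 (root mean square, log2), the other control pair differed by 0.258, DSF pairs by 0.164 to 0.212 and control from DSF by 0.624 to 0.671. DSF replicate 3 lay on another slide than the other 5 arrays, so values without it are within-slide values. Without control replicate 1 there were 3989 genes called higher and 3979 lower, and without DSF replicate 3 there were 3749 and 3771. Other scalings moved all changes together, and the median of all probes stood at 0.136 when arrays were scaled on 7 spike-in probes and at -0.171 when scaled on the array median, against 0.001 here. Small changes are therefore changes relative to the bulk of the array. Relative to the spike-ins, the 75th percentile was -2.94 on DSF replicate 3, and -3.233 and -3.191 on the other DSF arrays. On control arrays it was -3.269, -3.267 and -3.231. The shift under spike-in scaling thus rests largely on DSF replicate 3, and calls lost under that scaling share this limit. Spike-in scaling without that array was not tested.

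Promoters were searched for the elements bound by MTF1 and HSF1, and 3 are shown that hold matches and belong to metallothionein and heat shock genes with some of the largest rises. They are RefSeq sequences of GRCh38.p14, the 250 bases before the annotated start, with matches in capitals. For MT2A (chr16:56608334-56608583, plus strand) and MT1X (chr16:56682220-56682469, plus strand) the capitals mark the metal response element core, TGCACNC or TGCGCNC on either strand. For HSPA6 (chr1:161524290-161524539, plus strand) they mark a heat shock element, 3 alternating GAA and TTC units set apart by any 2 bases, on either strand.
MT2A: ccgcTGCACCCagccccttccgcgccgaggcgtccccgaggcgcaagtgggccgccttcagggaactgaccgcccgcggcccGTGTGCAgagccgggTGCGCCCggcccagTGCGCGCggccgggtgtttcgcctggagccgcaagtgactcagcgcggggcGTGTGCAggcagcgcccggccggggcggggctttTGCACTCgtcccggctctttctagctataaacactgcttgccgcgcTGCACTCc
MT1X: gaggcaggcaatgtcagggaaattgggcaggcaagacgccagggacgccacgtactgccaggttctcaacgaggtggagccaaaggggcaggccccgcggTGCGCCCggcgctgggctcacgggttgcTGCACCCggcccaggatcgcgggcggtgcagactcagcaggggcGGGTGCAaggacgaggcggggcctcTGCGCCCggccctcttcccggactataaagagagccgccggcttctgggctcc
HSPA6: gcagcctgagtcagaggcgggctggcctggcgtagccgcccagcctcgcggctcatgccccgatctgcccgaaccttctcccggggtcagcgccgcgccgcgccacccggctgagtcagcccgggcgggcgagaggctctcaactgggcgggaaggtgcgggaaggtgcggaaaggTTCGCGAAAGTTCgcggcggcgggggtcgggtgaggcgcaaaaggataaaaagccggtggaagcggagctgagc

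The MT2A window held 7 metal response element matches and the MT1X window 4. RefSeq promoter entries were found for 4 of the 10 metallothioneins tested, and the windows of the other two, MT1H and MT1B, held 8 and 3. The same letters occur in 24.7% of all 27305 promoters and in 31.4% of the 12396 promoters of genes tested, with at most 12 in any promoter. The heat shock element letters are rarer, in 0.439% of all promoters and 0.347% of those of genes tested. Among the 36 heat shock chaperone genes tested, 31 had a promoter entry and 4 a match, which were HSPA6, DNAJB6, CHORDC1 and HSPA8. A match is a string of letters and was not tested as a binding site.

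Of 15765 genes tested, 4160 (26.4%) were called higher and 4175 (26.5%) lower after DSF, or 8335 genes in all (52.9%). By probe, 7136 of 29809 (23.9%) were called higher and 6085 (20.4%) lower, 44.4% in all. Every DSF array lay above every control array for 5140 genes (32.6%) and below for 5599 (35.5%). Higher calls made up 54.0% of called probes, 32.9% with median scaling and 74.6% with spike-in scaling. The counts were alike in both directions but the sizes were not. The median change of called genes was 0.66 for those higher and -0.48 for those lower. Fitted changes of at least 4-fold were found for 555 genes that rose and 46 that fell, and of at least 16-fold for 110 and 2. Of those 110 genes, 76 were not well above background on any control array, as were 487 of all genes called higher. Only 23 genes called lower were not well above background on any DSF array. A fold change against such a group depends on the background, so it is given below as a lower bound, reckoned from the dimmest signal that counted as well above background. Sizes of other dim genes also depended on the background correction. Of 197 genes followed through the alternatives and called here, 44 had a change over 1.5 times smaller after normexp correction with an offset, and their normexp value is given beside the change below where no lower bound is.

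**Figure D1:**
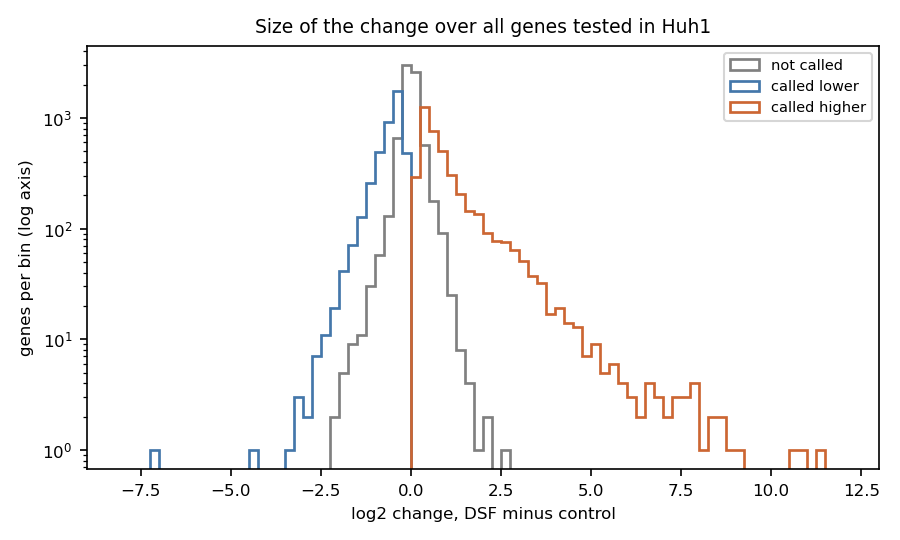
Distribution of the log2 change (DSF minus control, x axis) over the 15765 genes tested in Huh1, drawn apart for genes called higher, called lower and not called, as the number of genes per bin (y axis, log scale). The 555 genes that rose at least 4-fold form a long right tail, against 46 that fell by as much.

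The metallothioneins rose most. Of 10 tested, 9 were called higher and none lower, with a median change of 7.65, beside 26.4% of all genes called higher and a median change of -0.02 over all genes. MT1G stood at -4.42, -5.08 and -4.56 on the control arrays and at 6.63, 6.69 and 6.80 on the DSF arrays, a change of 11.40 ± 0.33 (SE, n = 3 and 3, limma adjusted p = 9.98e-12). MT2A, the member broadly expressed in human tissues, went from 1.52, 1.19 and 1.09 to 8.01, 7.85 and 8.32, a change of 6.79 ± 0.18 (limma adjusted p = 3.91e-12). MT1X went from -0.18, -0.16 and -0.18 to 7.32, 7.38 and 7.47. The groups were far apart for each of these genes, and the spread within a group was small beside the step between groups.

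MT1F was not well above background on any control array (-5.85, -5.72 and -5.98) and stood at 5.04, 5.11 and 5.21 after DSF, at least 1643-fold higher (limma adjusted p = 2.19e-12). MT1A had the smallest rise among those called, from 3.80, 3.77 and 3.64 to 7.94, 7.94 and 8.09, a change of 4.25 ± 0.10. MT3, a member known from the brain, was at 1.49, 1.54 and 1.41 in control and 1.29, 1.49 and 1.49 after DSF (change -0.06, limma adjusted p = 0.83; 0.07 with spike-in scaling). These genes are near-identical copies in tandem on chromosome 16, and how far a probe for one also binds transcripts of another was not tested. Both tested probes of MT1H rose, by 7.48 on the brighter and by a fitted 12.68 on the other. No lower bound was reckoned for the dimmer probe, and the size of its change may depend on the background.

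Pseudogenes of the same cluster rose with them. MT1L went from -0.06, -0.18 and -0.22 to 7.69, 7.64 and 7.80, while MT1DP and MT1IP, both not well above background in control, were at least 6.73-fold and 3.11-fold higher. Genes beside the cluster moved much less. Before it, NUDT21 changed by 0.64, OGFOD1 by 0.43 and BBS2 by 0.11. After it, NUP93 changed by -0.11, HERPUD1 by 1.55, NLRC5 by 0.13 and CPNE2 by -0.69. Among these 7 neighbors, NUDT21, OGFOD1 and HERPUD1 were called higher and CPNE2 lower, with the call of OGFOD1 lost under median scaling.

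Among zinc transporters, SLC30A1, which exports zinc across the plasma membrane and is a classic MTF1 target, went from 1.25, 1.28 and 1.28 to 3.95, 3.90 and 3.86, a change of 2.64 ± 0.11 (limma adjusted p = 6.2e-10). Of 8 zinc exporters 2 were called higher and 3 lower, and of 11 zinc importers 2 and 3. Over all genes 26.4% were called higher and 26.5% lower. SLC30A10, known as a manganese exporter, fell by 1.39 and SLC39A6, a zinc importer, rose by 1.09. Of 12 copper transporters and chaperones, 3 were called higher and 7 lower, or 3 and 2 under spike-in scaling. ATP7B, the copper-exporting ATPase of hepatocytes, went from 1.48, 1.54 and 1.56 to 0.32, 0.31 and 0.40, a change of -1.18 ± 0.10. ATOX1, which hands copper to it, fell by 0.73, and COMMD1, a regulator of copper export, rose by 0.71. MTF1 was 0.35 higher, a call lost with median scaling. Over all 42 metal genes tested, 17 were called higher and 13 lower with a median of 0.05. Under median scaling these became 13, 18 and -0.13, and under spike-in scaling 16, 5 and 0.18, and the median was -0.01 without control replicate 1.

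Among the heat shock chaperones HSPA6 rose most. Of 36 chaperone genes 12 were called higher (33.3%) and 7 lower (19.4%), beside 26.4% and 26.5% of all genes, with a median of 0.04. The balance turned under median scaling, to 9 higher and 16 lower with a median of -0.13, and stood at 11 and 1 under spike-in scaling. HSPA6, a strictly stress-inducible HSP70, stood at -3.68, -3.52 and -3.44 in control and at 3.53, 3.51 and 3.59 after DSF, a change of 7.09 ± 0.14 (limma adjusted p = 1.23e-13). CRYAB, a small heat shock protein, went from 0.72, 0.86 and 0.76 to 2.64, 2.51 and 2.62, a change of 1.82 ± 0.12. HSPA1A, the main inducible HSP70, went from 4.74, 5.01 and 4.96 to 6.57, 6.51 and 6.53, a change of 1.63 ± 0.14. DSF and control arrays did not overlap for any of these.

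By role, 8 of 14 HSP70 and cochaperone genes were called higher and 2 lower, among them DNAJB1 (0.79), BAG3 (0.70) and HSPA1B (1.00) higher and DNAJB4 (-1.04) lower. Of the 3 small heat shock proteins HSPB8 (change 1.25) and CRYAB rose, and HSPB1 fell by 0.47, a call lost with spike-in scaling. No HSP90 gene of 7 and no chaperonin of 10 was called higher, while 1 and 3 were called lower, and none under spike-in scaling. HSPE1, the mitochondrial cochaperonin, fell by 0.45, a call lost with spike-in scaling. The other promoters with a heat shock element match belonged to genes with small changes, 0.299 for DNAJB6, 0.100 for CHORDC1 and 0.044 for HSPA8.

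Of 43 proteasome and ubiquitin genes 15 were called higher (34.9%) and 4 lower (9.3%), beside 26.4% and 26.5% of all genes. Their median was 0.12. The balance depended on scaling, with 6 higher and 12 lower and a median of -0.06 under median scaling, and 12 and 0 under spike-in scaling. The regulatory particle held 9 of the higher calls among 18 genes, 2 under median scaling. PSMC4, an ATPase of that particle, went from 3.80, 3.76 and 3.64 to 4.49, 4.44 and 4.52, a change of 0.75 ± 0.07, and PSMD12 rose by 0.60. NFE2L1, the factor that restores proteasome genes, rose by 0.59, and SQSTM1, the autophagy adaptor p62, by 0.63.

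Genes of the antioxidant response fell more often than they rose. Of 31 NRF2 target and glutathione genes 3 were called higher (9.68%) and 15 lower (48.4%), beside 26.4% and 26.5% of all genes. Their median was -0.21, and spike-in scaling gave 3 and 7. GCLC, the rate-limiting enzyme of glutathione synthesis, stood at 4.85, 4.70 and 4.69 in control and 3.98, 3.99 and 3.97 after DSF, a change of -0.77 ± 0.07 (limma adjusted p = 1.09e-06). GCLM, its regulatory subunit, changed by -0.36, a call lost under spike-in scaling and without control replicate 3 or DSF replicate 3. NQO1, a quinone reductase, EPHX1, an epoxide hydrolase, and CBR1, a carbonyl reductase, fell, with changes of -0.75, -1.04 and -0.84. HMOX1, the heme oxygenase, read 6.31, 6.23 and 6.22 in control and 6.29, 6.25 and 6.35 after DSF (change 0.04, -0.13 under median scaling, limma adjusted p = 0.862), and TXNRD1 changed by -0.10 (0.03 under spike-in scaling, limma adjusted p = 0.291). MAFG, a partner of NRF2, rose by 0.59.

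Among 20 genes that remove peroxide and superoxide, 4 were called higher (20%) and 10 lower (50%), beside 26.4% and 26.5% of all genes. Spike-in scaling gave 4 and 2. SOD2, the mitochondrial superoxide dismutase and an NF-κB target, went from 3.72, 4.22 and 4.12 to 5.45, 5.48 and 5.54, a change of 1.47 ± 0.14. CAT, catalase, went the other way, from 2.67, 2.56 and 2.55 to 1.56, 1.44 and 1.52, a change of -1.09 ± 0.14. GPX8, an endoplasmic reticulum peroxidase, rose by 1.63 (0.85 with normexp). Of 5 peroxiredoxins tested, 3 were called lower and none higher, and none either way under spike-in scaling.

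In the ATF4 program 16 of 29 genes were called higher (55.2%) and 4 lower (13.8%), beside 26.4% and 26.5% of all genes. The program's median was 0.34. Median scaling gave 13 and 4 with a median of 0.16, and without control replicate 1 there were 14 and 4 with a median of 0.20. DDIT3, the factor CHOP, stood at 0.35, 0.39 and 0.35 in control and 3.03, 2.96 and 3.16 after DSF, a change of 2.69 ± 0.13 (limma adjusted p = 1.6e-09). PPP1R15A, which reverses the block on translation, went from -0.10, -0.49 and -0.40 to 3.33, 3.33 and 3.38, a change of 3.68 ± 0.18. ATF3 rose by 2.97 on its brightest probe and by 0.74 to 3.12 over 4 probes. GDF15, a secreted stress cytokine, rose by 2.79 and STC2 by 2.00 (1.28 with normexp). FGF21, a stress hormone of the liver, was not well above background in control and was at least 8.77-fold higher after DSF. Genes of amino acid synthesis and uptake were mixed, with 5 of 13 called higher and 4 lower, 3 and 4 under median scaling, and ASNS, asparagine synthetase, went from 3.99, 4.98 and 4.92 to 5.88, 5.86 and 5.84.

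Of 25 genes of endoplasmic reticulum chaperones and the unfolded protein response, 12 were called higher (48%) and 4 lower (16%). Over all genes 26.4% were called higher and 26.5% lower. The list's median was 0.22. Under median scaling 7 were higher and 6 lower with a median of 0.04, and under spike-in scaling 12 were higher and 0 lower. HERPUD1, which takes part in degradation of misfolded protein, went from 3.89, 4.13 and 4.07 to 5.58 on every DSF array, a change of 1.55 ± 0.11. The sensors ERN1 and ATF6 rose by 1.94 (0.86 with normexp) and 1.03, and the cochaperones DNAJC3 and DNAJB9 by 1.00 and 0.81. HSPA5, the main chaperone of this compartment, was 0.40 higher (limma adjusted p = 0.0252), a call lost under median scaling, with slide as a block, and in 4 of the 6 fits that left out an array.

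The p38 MAPK pathway was of interest to the study, and transcripts of its own kinases moved in both directions. The study's evidence for p38 activation was phosphorylated p38 protein, the effect of a p38 inhibitor and gene set enrichment on the arrays. Transcript levels of the kinases, given here, do not measure their phosphorylation. Of 4 p38 kinases MAPK11 rose, from -3.59, -3.84 and -3.63 to -2.38, -2.29 and -2.32, a change of 1.36 ± 0.11 on its brighter probe (0.84 with normexp) and 0.32 on the other. MAPK14, the main p38 isoform, read 0.46, 0.52 and 0.51 in control and 0.34, 0.32 and 0.28 after DSF, a change of -0.18 (limma adjusted p = 0.0432). This call and that of MAPK12 (change -0.59, -0.36 with normexp) were lost in most alternatives, the latter with -0.22 without control replicate 2. MAPK13 changed by 0.15 (-0.03 under median scaling, limma adjusted p = 0.475). Of 11 upstream kinases none was called higher and 5 lower. Over all 47 genes, which also hold AP-1 factors and MAPK phosphatases, 15 were called higher (31.9%) and 14 lower (29.8%), near the 26.4% and 26.5% of all genes. Counts were 15 and 3 under spike-in scaling and 13 and 18 under median scaling. The median was near 0 (-0.17 under median scaling and 0.13 under spike-in scaling).

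The phosphatases that act on MAP kinases and some AP-1 partners were more often higher than lower. Of 11 MAPK phosphatases 6 were called higher (54.5%) and 2 lower (18.2%), beside 26.4% and 26.5% of all genes. DUSP10, which acts on p38 and JNK, went from -3.52, -3.20 and -3.08 to -0.66, -0.65 and -0.46, a change of 2.68 ± 0.16. DUSP4 and DUSP5 rose by 1.84 and 1.83. MAFF, a small MAF factor, went from -2.36, -1.48 and -1.46 to 1.94, 2.02 and 1.97, a change of 3.74 ± 0.20, and FOSL1, an AP-1 subunit, rose by 2.19. FOS read 3.98, 2.36 and 2.80 in control and 1.92, 2.00 and 2.00 after DSF (limma adjusted p = 0.112), with control replicate 1 highest. JUN changed by -0.63 (-0.35 without control replicate 1), a call lost under spike-in scaling and with only these 6 arrays fitted.

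Chemokines and feedback genes of NF-κB rose together. Of 14 tested 10 were called higher (71.4%) and none lower, beside 26.4% and 26.5% of all genes. The median of the 14 was 1.73. CXCL8, the neutrophil chemokine, stood at -3.40, -1.66 and -1.47 in control and 0.68, 0.71 and 0.79 after DSF, a change of 2.90 ± 0.36, where control replicate 1 was the lowest. CXCL3 went from -3.74, -3.74 and -3.56 to -1.12, -1.23 and -1.23, a change of 2.49 ± 0.10. TNFAIP3, an inhibitor of NF-κB, rose by 2.42, and CXCL1, CCL20 and CXCL2 by 2.53, 2.41 and 2.17. Of 23 interferon-stimulated genes 10 were called higher (43.5%) and 3 lower (13%) with a median of 0.12. Under median scaling the balance turned to 4 and 5 with a median of -0.05.

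Genes of TGF-beta signaling and matrix were split, with 13 of 31 called higher (41.9%) and 10 lower (32.3%), beside 26.4% and 26.5% of all genes. Their median was 0.10 (-0.07 under median scaling, with 13 and 11). MMP1, a collagenase and AP-1 target, was not well above background in control (-5.62, -7.31 and -7.57) and stood at -0.67, -0.85 and -0.62 after DSF, at least 28.8-fold higher. MMP7 went from 0.77, -0.21 and -0.35 to 2.00, 1.96 and 1.97, a change of 1.90 ± 0.32. PLAUR, the urokinase receptor, rose by 2.58, PLAU, urokinase, by 1.85 (0.79 with normexp) and CCN1, a matrix protein, by 1.83.

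In the cell cycle, mitotic genes fell and a single CDK inhibitor rose from background. Of 73 genes 8 were called higher (11%) and 38 lower (52.1%), beside 26.4% and 26.5% of all genes. Their median was -0.19, and spike-in scaling gave 8 and 12. Mitosis held 18 of the lower calls among 26 genes (69.2%) and replication 9 of 21 (42.9%), or 5 and 3 under spike-in scaling. KIF20A, a mitotic kinesin, went from 1.51, 1.45 and 1.39 to 0.56, 0.51 and 0.56, a change of -0.91 ± 0.08. CDKN3, a phosphatase of CDK2, fell by 0.82, and TOP2A and MKI67 changed by -0.60 and -0.57, both called. CDK2 changed by -0.17 (limma adjusted p = 0.0665) and was called lower under median scaling, quantile normalization, with the slide as a block and with these 6 arrays alone.

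CDKN1C, the imprinted CDK inhibitor p57, stood at -5.70, -5.86 and -5.94 in control, where no array was well above background. After DSF it stood at 4.83, 4.70 and 4.67, at least 1256-fold higher (limma adjusted p = 7e-15). On the 5-FU arrays of the same line it was well above background with a mean of -4.84. Its neighbors on chromosome 11 changed far less, CD81 by -0.40, TSSC4 by 0.60, TRPM5 by 0.26 and KCNQ1OT1 by 0.31 on the lower-coordinate side, and SLC67A1 by -0.76, PHLDA2 by 0.71, NAP1L4 by -0.11 and CARS1 by 1.25 on the other. KCNQ1OT1 is the noncoding RNA of the same imprinted domain, and its limma adjusted p was 0.25. A single tested probe measures CDKN1C, so no other probe checks it. The study itself reported a striking rise of this gene in Huh1 EpCAM+ cells. It also shows quantitative RT-PCR of cell cycle genes, and its primer list includes this gene.

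The other CDK inhibitors moved less and in both directions. CDKN2D went from 0.56, 0.60 and 0.60 to 2.14, 2.04 and 2.06, a change of 1.49 ± 0.10. CDKN2B rose by 1.42 and CDKN1A, the p53 target p21, by 0.50, from -1.53, -1.88 and -1.88 to -1.31, -1.29 and -1.17. CDKN2C, in contrast, went from 2.32, 1.96 and 1.95 to 0.93, 0.86 and 0.92, a change of -1.17 ± 0.21. CDKN1B and CDKN2A changed by -0.35 and -0.29, calls lost under spike-in scaling, and that of CDKN2A also without control replicate 2 or 3.

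**Figure D2:**
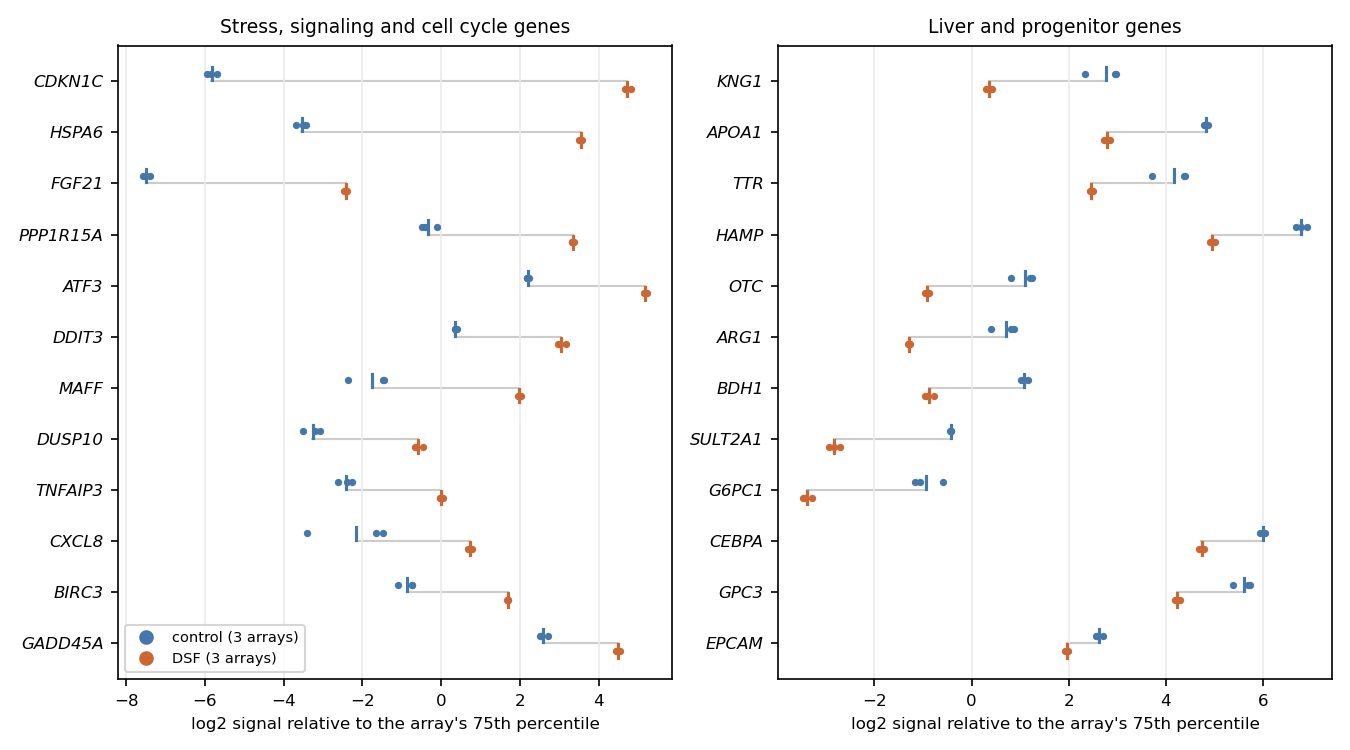
Log2 level relative to the array's 75th percentile (x axis) of stress, signaling and cell cycle genes (left) and liver and progenitor genes (right) on the 3 control and 3 DSF arrays of Huh1; points are arrays, short bars group means. CDKN1C moved from between -5.94 and -5.70 to between 4.67 and 4.83, the widest step shown, and the liver genes on the right moved the other way.

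Of 41 apoptosis genes 16 were called higher (39%) and 8 lower (19.5%), beside 26.4% and 26.5% of all genes, with a median of 0.17. The balance depended on scaling, with 13 higher and 15 lower and a median of 0.00 under median scaling, and 16 and 3 under spike-in scaling. Among genes that promote death, HRK was not well above background in control and was at least 4.54-fold higher, PMAIP1, or NOXA, went from -0.70, -0.53 and -0.45 to 1.51 on every DSF array, and BBC3, or PUMA, rose by 1.77. Among genes that oppose it, BIRC3, an NF-κB target, went from -1.10, -0.75 and -0.74 to 1.69, 1.68 and 1.71, a change of 2.55 ± 0.09. The death receptor TNFRSF10B rose by 1.05 and the decoy receptor TNFRSF10D by 1.55. CASP10 rose by 1.64 on its brightest probe, and its 3 probes ranged from 0.01 to 1.64.

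Of 24 p53 targets 9 were called higher (37.5%) and 4 lower (16.7%), beside 26.4% and 26.5% of all genes. Their median was 0.18, and median scaling gave 9 and 6 with a median of 0.01. PLK3, a stress kinase, went from -0.53, -0.69 and -0.59 to 1.73, 1.80 and 1.84, a change of 2.39 ± 0.16. GADD45A rose by 1.90 and SESN2 by 1.41. Both are also known targets of ATF4, and this list shares GDF15 with the ATF4 list.

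Liver-specific genes fell over several functions. Of 75 secreted liver proteins 3 were called higher (4%) and 49 lower (65.3%), beside 26.4% and 26.5% of all genes. Their median was -0.70, and spike-in scaling gave 3 and 36. KNG1, the kinin precursor, went from 2.34, 2.96 and 2.97 to 0.42, 0.37 and 0.30, a change of -2.39 ± 0.30 (limma adjusted p = 2.11e-05). APOA1, the main protein of high-density lipoprotein, went from 4.78, 4.87 and 4.80 to 2.78, 2.73 and 2.84, a change of -2.03 ± 0.21. HAMP, the iron hormone hepcidin, went from 6.90, 6.77 and 6.68 to 4.94, 4.90 and 5.01, a change of -1.83 ± 0.20. TTR, SERPINF2 and APOB fell, with changes of -1.71, -1.90 and -0.84. Albumin itself (ALB) read 8.57, 8.68 and 8.59 in control and 8.32, 8.34 and 8.45 after DSF, a change of -0.25 whose call was lost under spike-in scaling and in 3 of the 6 fits that left out an array. SERPINA7, the thyroxine carrier, was not well above background in control and was at least 1.80-fold higher.

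Of 23 hepatocyte transcription factors 1 was called higher (4.35%) and 14 lower (60.9%), beside 26.4% and 26.5% of all genes. Their median was -0.48, and spike-in scaling gave 1 and 10. CEBPA went from 6.04, 6.01 and 5.94 to 4.74, 4.68 and 4.78, a change of -1.26 ± 0.14. RXRA, the partner of many nuclear receptors, fell by 1.23 and ONECUT2 fell by 0.94. PPARA fell by 1.03 on its brighter probe, and its other probe changed by 0.07. NR0B2, a repressor in bile acid control, was the gene called higher, from -2.15, -0.66 and -0.70 to 0.04, 0.08 and 0.19, a change of 1.27 (0.78 without control replicate 1) and a call lost when only these 6 arrays were fitted.

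Metabolic lists fell with them. Of 39 sterol and fatty acid synthesis genes 2 were called higher (5.13%) and 27 lower (69.2%), beside 26.4% and 26.5% of all genes. Their median was -0.42, and spike-in scaling gave 2 and 13. FASN, fatty acid synthase, went from 4.14, 4.18 and 4.21 to 3.26, 3.27 and 3.32, a change of -0.90 ± 0.08. FADS2 fell by 1.00, and ACACA changed by -0.80 on its brighter probe and -0.14 on the other. Of 28 genes of fatty acid oxidation and ketogenesis 2 were called higher (7.14%) and 23 lower (82.1%), with a median of -0.51. Spike-in scaling gave 2 and 13. BDH1, which interconverts the main ketone bodies, went from 1.01, 1.08 and 1.17 to -0.77, -0.91 and -0.96, a change of -1.97 ± 0.29, and EHHADH, an enzyme of peroxisomal oxidation, fell by 1.62.

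Of 41 genes of the urea cycle and amino acid catabolism 5 were called higher (12.2%) and 21 lower (51.2%). Over all genes 26.4% were called higher and 26.5% lower. The list's median was -0.60, and the urea cycle itself held 7 lower calls among 9. OTC, an enzyme of that cycle, went from 0.82, 1.25 and 1.21 to -0.87, -0.96 and -0.90, a change of -2.00 ± 0.26. ARG1, the last enzyme of the cycle, fell by 1.99. CTH, which makes cysteine and is an ATF4 target, went the other way, from 1.66, 2.08 and 2.07 to 4.09, 4.08 and 4.15, a change of 2.17 ± 0.14. Among 45 glucose genes 12 were called higher (26.7%) and 16 lower (35.6%), beside 26.4% and 26.5% of all genes. Spike-in scaling gave 9 and 9, and 5 of 7 gluconeogenesis genes were called lower. G6PC1, the last step of glucose release, went from -0.59, -1.06 and -1.17 to -3.28, -3.46 and -3.43, a change of -2.45 ± 0.34, and PCK1 fell by 2.14 (-1.06 with normexp). ENO2 and KDM3A, both hypoxia-responsive, rose by 1.71 (0.87 with normexp) and 1.34.

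Of 56 cytochrome P450 and conjugation genes 8 were called higher (14.3%) and 27 lower (48.2%), beside 26.4% and 26.5% of all genes. Their median was -0.40, and spike-in scaling gave 8 and 18. SULT2A1, a sulfotransferase, went from -0.44, -0.43 and -0.42 to -2.84, -2.71 and -2.93, a change of -2.40 ± 0.25. GSTA2, a glutathione transferase, fell by 2.01. CYP1A1, the classic target of the aryl hydrocarbon receptor, rose from 0.02, -0.01 and -0.01 to 1.66, 1.63 and 1.67.

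The aldehyde dehydrogenases, the enzyme family that DSF inhibits, had no member called higher and 11 of 16 called lower (68.8%). Over all genes 26.4% were called higher and 26.5% lower. The family's median was -0.75, and spike-in scaling gave 0 and 8. ALDH1A1 went from 7.43, 7.61 and 7.53 to 6.73, 6.70 and 6.69, a change of -0.82 ± 0.09. ALDH2, the mitochondrial enzyme of ethanol metabolism, read 3.36, 3.68 and 3.68 in control and 3.33, 3.30 and 3.34 after DSF, a change of -0.25 (limma adjusted p = 0.0286) whose call was lost in 10 of 17 alternatives. ALDH5A1 and ALDH7A1 fell, with changes of -0.96 and -0.84.

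Progenitor and oncofetal genes went in both directions, with 11 of 45 called higher (24.4%) and 16 lower (35.6%), beside 26.4% and 26.5% of all genes. Their median was -0.14. The balance turned under spike-in scaling, to 12 and 9 with a median of -0.01, and was 8 and 22 under median scaling. GPC3, the oncofetal glypican studied by the authors, went from 5.38, 5.73 and 5.69 to 4.21, 4.19 and 4.29, a change of -1.37 ± 0.14 (limma adjusted p = 3.71e-06), and its other probe fell by 1.51. Among surface markers, ANPEP, or CD13, went from 1.49, 1.40 and 1.38 to 0.06, 0.13 and 0.15, CD24 fell by 0.73, and ICAM1 rose by 1.33. EPCAM read 2.71, 2.57 and 2.58 in control and 1.99, 1.93 and 1.97 after DSF, within cells sorted on that protein, and its call was lost under spike-in scaling. PROM1, or CD133, was near background and 0.53 higher (0.12 with normexp), a call lost in 6 alternatives, and CD44 changed by -0.14 (limma adjusted p = 0.575).

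AFP read 4.51, 5.11 and 5.05 in control and 4.38, 4.32 and 4.38 after DSF, and its change of -0.53 was not called under spike-in scaling or with these 6 arrays alone. CDH1, E-cadherin, changed by -0.69 (limma adjusted p = 0.023), a call lost in 6 alternatives. KRT19, a biliary and progenitor keratin, rose to 4.90, 4.87 and 4.89 from 4.04, 2.39 and 2.29, with control replicate 1 the nearest to the DSF arrays. SALL4, an oncofetal factor, went from -4.31, -4.69 and -4.38 to -2.60, -2.41 and -2.67, a change of 1.90 (1.05 with normexp). IGF2 was not well above background in control on its brightest probe, at least 5.77-fold higher after DSF, and its other probe changed by 0.00.

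Of 16 Wnt targets 3 were called higher (18.8%) and 7 lower (43.8%), beside 26.4% and 26.5% of all genes. Spike-in scaling gave 3 and 4. The median of the list was -0.29. It was 0.00 when the 5 genes near background were set to their bounds, or to 0 where no bound could be given. DKK1, a secreted Wnt inhibitor, went from -4.96, -2.62 and -2.61 to -0.51, -0.51 and -0.44, with control replicate 1 far lowest. TCF7 fell by 0.83 and RNF43 fell by 0.76.

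The labelled cell type held for the liver epithelium markers, with ALB at 8.57 and KRT18 at 7.81 on control replicate 1. Of 10 such markers none was called higher and 8 lower (80%), or 4 lower under spike-in scaling. Over all genes 26.4% were called higher and 26.5% lower. Of leukocyte, endothelial and stellate or fibroblast markers, 6, 3 and 5 were tested, with 1, 1 and 0 called higher and 1, 1 and 0 lower. None of the 6 arrays had COL1A1 or PDGFRA well above background, PTPRC lay between -4.76 and -4.33, and CD3E, KDR, COL1A2 and COL3A1 were too dim to test. The part of other cell types in the results was not tested.

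Mitochondrial genes shifted slightly and cytosolic ribosomal genes hardly at all. Of 73 respiratory chain genes none was called higher and 46 lower (63%), beside 26.4% and 26.5% of all genes. Their median was -0.22, and only 6 were called lower under spike-in scaling. ATP5F1D, a subunit of ATP synthase, went from 3.35, 3.08 and 2.97 to 2.35, 2.34 and 2.46, and NDUFC2 fell by 0.62. Of 78 ribosomal protein genes 1 was called higher (1.28%) and 3 lower (3.85%), with a median of -0.04 (0.09 under spike-in scaling). Under median scaling 48 were called lower. RPL3, among those lower, changed by -0.26, a call lost under spike-in scaling and without DSF replicate 2. GAPDH, a usual reference gene, stood between 7.35 and 7.48 in control and 7.35 and 7.51 after DSF, with a change of -0.02 (limma adjusted p = 0.83) that was above 0 under quantile and spike-in scaling.

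Several of the largest rises lay outside the lists. NPTX2, a neuronal pentraxin, was not well above background in control (-7.67, -7.60 and -7.63) and stood at 1.21, 1.07 and 1.06 after DSF, at least 102-fold higher. RRAD, a small GTPase of muscle, went from -7.25, -6.62 and -6.95 to 1.75, 1.67 and 1.64, at least 152-fold. ARC, an immediate early gene of neurons, went from -7.51, -7.45 and -7.48 to 1.02, 0.93 and 0.96, at least 92.7-fold. For all 3 genes the DSF arrays lay close together, far above every control array. MIR7-3HG, KRTAP2-3, PLK5, ELOA2 and IL11 were likewise dim in control and at least 106-fold, 73.2-fold, 73.4-fold, 68.6-fold and 54.9-fold higher.

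The largest falls were smaller. OR6X1, an olfactory receptor gene, read -1.44, 1.12 and -1.70 in control and -7.75, -7.69 and -7.83 after DSF, at least 35.5-fold lower, with control replicate 2 far above the others. CHP2, a calcineurin-like protein, was at least 11.7-fold lower. Where both groups were well above background, DGKK went from -1.54, -1.60 and -1.62 to -4.42, -4.28 and -4.14, and ECM2 from -0.56, -0.37 and -0.42 to -3.03, -2.96 and -3.28. KRT4, CDO1, DACT2 and GXYLT2 also fell, with changes of -2.67, -2.51 (-1.44 with normexp), -2.45 and -2.42.

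By probe class, 26.8% of tested RefSeq mRNA probes were called higher and 25.9% lower, and 12.8% and 8.17% of probes for lincRNA regions. Probes for RefSeq noncoding RNA were called higher in 24% and lower in 13.9%.

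The response differed from that of Huh7 for 7322 genes (46.4%), with 3464 (22%) more positive in Huh1 and 3858 (24.5%) less so, by the test of the difference itself. By probe this was 12049 of 29809 (40.4%), 8688 with the slide as a block and 8344 with spike-in scaling. Relative to the spike-ins, the 75th percentile was -3.259 to -3.105 on Huh7 control arrays and -3.48 to -3.134 on Huh7 DSF arrays. Differences between the lines therefore also depend on scaling, and list counts for them were not remade under other scalings. Of the Huh7 DSF arrays, 2 lay on a slide of their own. In Huh7 itself 8415 genes (53.4%) were called, 4610 higher (29.2%) and 3805 lower (24.1%). CDKN1C, at least 1256-fold higher in Huh1, changed by 0.14 in Huh7 (limma adjusted p for the difference 3.01e-12). PLK5, TENT5C and FGF21 also moved up in Huh1 and had negative changes in Huh7, -0.53, -0.65 and -0.81, while NPTX2 was not well above background on any Huh7 array of either group. Heat shock genes showed the reverse. CRYAB changed by 1.82 in Huh1 and 9.76 in Huh7, and HSPA1A by 1.63 in Huh1 and at least 158-fold in Huh7, both called for the difference. Of 36 heat shock genes 30 were called for a smaller response in Huh1 and 1 for a greater, and 34 were called higher in Huh7 and none lower.

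Other lists differed gene by gene. Of 43 proteasome and ubiquitin genes 28 had a smaller response in Huh1, and of 31 NRF2 genes 23 did. GCLC, lower in Huh1, was 0.91 higher in Huh7 (limma adjusted p for the difference 4.87e-08). HMOX1 rose by 1.51 in Huh7, against 0.04 in Huh1 (limma adjusted p for the difference 0.000148). Of 29 ATF4 genes 19 had a greater response in Huh1 and 1 a smaller; DDIT3 changed by 0.48 in Huh7. Sterol and fatty acid genes were called lower in 35 of 39 in Huh7, and 21 of 39 fell less in Huh1. MT1A and MT1H did not pass the test of the difference, at 4.25 against 4.24 and 7.48 against 7.63 (limma adjusted p = 0.956 and 0.411), while MT1F rose more in Huh1 and MT2A, MT1E, MT1X and MT1M less. SLC30A1 changed by 2.64 and 2.74. HAMP fell by 1.83 in Huh1 and changed by 0.67 in Huh7, and MMP7 changed by 1.90 in Huh1 and was at least 77-fold higher in Huh7.

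**Figure D3:**
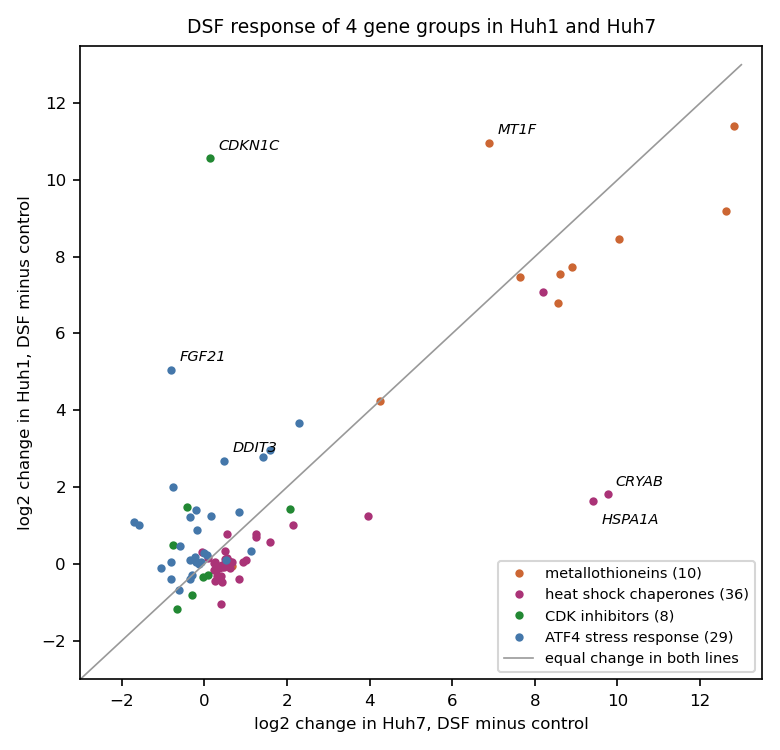
Log2 change after DSF in Huh7 (x axis) against Huh1 (y axis) for metallothioneins, heat shock chaperones, CDK inhibitors and ATF4 genes; a point is a gene and the line marks equal change. Fitted changes are drawn, also for genes not well above background in a control group, whose size depends on the background. CDKN1C, one of these, is drawn at 10.57 in Huh1 and 0.14 in Huh7, CRYAB at 1.82 and 9.76, and MT1A on the line at 4.25 and 4.24.

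Set directly against 5-FU in the same line, 4803 genes (30.5%) were higher with DSF and 4017 (25.5%) lower, 8820 in all (55.9%). Relative to the spike-ins, the 75th percentile was -2.453 to -2.413 on 5-FU arrays, -3.233 to -2.94 on DSF arrays and -3.269 to -3.231 on control arrays, so these differences also depend on scaling. All 9 metallothioneins called against control were higher with DSF than with 5-FU, led by MT1G, 12.75 higher, and by MT1F, which was not well above background on any 5-FU array. CDKN1C was 9.57 higher (limma adjusted p = 2.06e-14) and HSPA6 6.85 higher. Stress genes differed less, with DDIT3 0.48 and GADD45A 0.38 higher, and GDF15 (-0.21, limma adjusted p = 0.273), DUSP10 (0.26, limma adjusted p = 0.204) and CXCL8 (-0.13, limma adjusted p = 0.789) not called. Liver genes lay below their 5-FU level, with differences of -2.79 for KNG1, -2.65 for APOA1, -3.45 for G6PC1 and -1.43 for AFP, as did ISM1, a secreted protein (-3.03). Of 75 secreted proteins 54 were lower and 3 higher than with 5-FU, and of 78 ribosomal protein genes 76 were higher and none lower. Counts by direction against 5-FU were not remade under other scalings.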

How the data were processed

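RNA of EpCAM+ Huh1 and Huh7 cells was hybridized to one-color human Agilent arrays, 18 in all, 3 for each of 6 groups taken from the labels. The authors deposited, for each array, Feature Extraction output (10.7.1.1 per the file headers) with spot intensity after background subtraction. They also deposited a table of normalized signal, scaled to the 75th percentile of each array, which was used as an alternative.

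The log2 processed signal was averaged over a probe's unflagged spots, and each array's 75th percentile over non-control probes was subtracted. Testing was limited to the 29809 of 42405 probes that Feature Extraction marked well above background throughout some group. Per array, 59.34% to 60.63% of probes passed in control and 63.75% to 64.1% after DSF, and none was saturated. The number of arrays limits the precision. Probes were named through RefSeq accessions (25771 of 27134 were given a symbol, for 19740 genes), and a gene takes its brightest tested probe.

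One limma fit of all 18 arrays with 6 group means gave every contrast, called at a Benjamini-Hochberg adjusted p under 0.05. The methods describe independent experiments. Members and lists were chosen with earlier results of these data known. Genes were named by rule: the 15 largest rises and falls, up to 6 called members of each list, all metallothioneins, CDK inhibitors, p38 kinases and surface markers, genes the study names, and the 5 largest differences each way from Huh7 and from 5-FU. Some genes that the rule named are not reported here. Metal transporters, cluster neighbors and other textbook members (such as HMOX1, HSPA5, ASNS, FOS, TOP2A, BAG3 and KRT8) were added after their values were seen. Median, quantile and spike-in scaling, normexp, the deposited table, other filters, blocks, fewer arrays, the study's selection rule and leaving out each array were tried. Normexp used the spots' median signals (offset 50), since the mean foreground column was not in the files used. The analysis was tested on simulated data. The fits ran in limma 3.58.1 (R 4.3.3). Tables were made with pandas 2.3.3 and numpy 2.4.6 under Python 3.11.15, and plots with matplotlib 3.10.9.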

Additional observations from a re-analysis of the deposited data

Results flagged for a closer look

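The genes below had a DSF response that differed between the lines by the limma test of the difference itself, given as the Huh1 response minus the Huh7 response on the log2 scale. Greater in Huh1 were CDKN1C (10.43), NPTX2 (9.65), PLK5 (8.41), LINC02139 (7.51), TENT5C (7.43), FGF21 (5.88), MT1F (4.07) and CDKN2D (1.90). For all of these but CDKN2D the Huh1 control arrays were not well above background, so the size of the difference depends on the background. Smaller in Huh1 were CRYAB (-7.95), HSPA1A (-7.79), CCL3L3 (-6.94), OR6X1 (-6.64), MMP7 (-5.92), HAMP (-2.50) and GCLC (-1.68). NPTX2 was not well above background on any control or DSF array of Huh7 either. For OR6X1 the Huh1 DSF arrays were the dim ones, and for HSPA1A, CCL3L3 and MMP7 the Huh7 control arrays were. Of the Huh7 DSF arrays, 2 lay on a slide of their own, and its part in these differences was not tested gene by gene.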

How the results depend on the processing

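Against 7136 probes called higher and 6085 lower, median scaling gave 4728 and 9654, spike-in scaling 7057 and 2403, and a 2-fold minimum 2451 and 807, with 54.0% of calls higher becoming 32.9%, 74.6% and 75.2%. The other alternatives for this contrast stayed within 1.5 times, as did those for the differences from Huh7 and from 5-FU. For the differences from Huh7 and from 5-FU, calls in both directions were counted together. A turn from higher to lower calls would not show in such counts. Leaving out each array gave 6221 to 7004 higher and 5182 to 5785 lower. Deviations from the group mean were little correlated between control and DSF arrays of the same replicate number (-0.012, -0.071 and -0.002). Between different numbers the correlations ranged from -0.049 to 0.069. With 3 arrays in each group, these values cannot show whether the samples were paired. With the replicate block 6673 probes were higher and 5583 lower.

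List medians crossed 0 as follows, and the cause was not tested. Metal handling was -0.128 with median scaling, -0.052 on probes well above background on all 6 arrays and -0.008 to 0.085 with an array left out. With median scaling heat shock was -0.130, the proteasome -0.057, TGF-beta -0.073 and endothelium -0.170. The p38 list was 0.015 with quantile normalization, 0.134 with spike-in scaling, 0.014 with normexp, 0.004 with the stricter filter and between -0.014 and 0.013 with an array left out. Spike-in scaling gave 0.091 for ribosomal proteins, 0.097 for leukocyte markers, 0.023 for stellate markers and 0.112 for all genes. Endothelial markers were -0.182 with quantile normalization, -0.009 with normexp and -0.276 with the stricter filter. With an array left out, leukocyte markers ranged from -0.098 to 0.012, endothelial from -0.054 to 0.044 and stellate from -0.171 to 0.169. Uncalled genes that changed sign were MT3 (0.073 spike-in, -0.096 to 0.004 with an array left out), MAPK13 (-0.027 median), GAPDH (0.036 quantile, 0.112 spike-in, -0.073 to 0.005 with an array left out), HMOX1 (-0.133 median), TXNRD1 (0.033 spike-in) and KRT18 (0.042 spike-in). Of 206 genes followed, 19 lost their call with spike-in scaling, 10 with only these 6 arrays fitted, and 6 to 10 with an array left out.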
